A study of Mus musculus with 84 samples.

Results

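Flavin-containing monooxygenases are enzymes of the endoplasmic reticulum that hold FAD, take electrons from NADPH and add an oxygen atom to nitrogen or sulfur atoms of drugs, dietary amines and other small molecules. Fmo1 also makes taurine from hypotaurine, Fmo2 is best known from lung, Fmo5 differs from the others in converting ketones to esters and is known from liver and gut, and Fmo4 is the least studied of these. The members Fmo1, Fmo2, Fmo4, Fmo5 and Fmo9 were taken by gene symbol from a count table, as 5 of its 25494 rows, together with the H3K27ac, H3K4me1 and HNF4α peaks within 10 kb of their loci. H3K27ac marks active promoters and enhancers, H3K4me1 marks enhancers more broadly, and HNF4α is a nuclear receptor of gut and liver epithelium. The family was chosen by the RNA levels of Fmo1 and Fmo2 in 2 groups of recipients named below, HFDHFB and HFDLFB, so that comparison, the difference between diets in it and the diet comparisons of Fmo1 and Fmo2, which use the same values, are described here without a test.

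All samples were colon of C57BL/6 mice. Long-term mice of both sexes, bought at 5 weeks of age and acclimated for 1 week, were on a low fat diet (LFD, 10% fat) or a high fat diet (HFD, 60% fat) for up to 20 weeks, and their epithelium gave 3 H3K27ac and 3 H3K4me1 libraries per sex and diet and, in males, 2 HNF4α libraries per diet. Recipients were male germ-free mice, about 6 weeks old at the first transfer, fed HFD or LFD and gavaged 4 times a week for 5 weeks with fecal bacteria of male donors on HFD (HFB) or on LFD (LFB), so that HFDHFB names a recipient on HFD given bacteria from HFD donors, HFDLFB one on HFD given bacteria from LFD donors, and LFDHFB and LFDLFB the same on LFD. Each recipient group had 3 RNA-seq libraries and 3 H3K27ac libraries, apart from 2 H3K27ac libraries in HFDHFB. The study's methods describe ChIP-seq on isolated colon epithelial cells. The labels call the tissue colon epithelium, but RNA of recipients came from cells scraped off the colon, and markers of other layers were read in it: none of the markers with a row of mesothelium (7), adipocyte (8), smooth muscle (8) or fibroblast (8) was at 0 in every library, beside 8 epithelial markers that summed to between 9404 and 14327 CPM per library (CPM, reads of a gene per 1000000 reads of the normalised library). No label ties a replicate number to an animal.

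In the mm9 build Fmo4 (chr1:164724014-164742680), Fmo1 (chr1:164759692-164796741) and Fmo2 (chr1:164805178-164828843) lay side by side on the minus strand, and with 10 kb on each side their loci joined into 1 block of 124.8 kb, called the chromosome 1 cluster below. Fmo9 (chr1:168592186-168611976, minus strand) lay 3.76 Mb away from Fmo2 and was treated apart from the cluster. Fmo5 stood alone on chromosome 3 (chr3:97432727-97459210, plus strand), and the 10 kb after its end held the start of Prkab2, a subunit of the energy sensor AMPK. The cluster window held no other annotated gene than its 3 members. These loci are as the count table gives them. GENCODE vM1 puts 4 starts of Fmo4 transcripts between positions 164742680 and 164744103, of which 3 lie beyond the end of that locus, and distances from a gene's start are from its nearest annotated start.

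HNF4α sites at the family carried the sequences below, which are shown because HNF4α peaks at this cluster were part of the study. Each is the 230 bases around the middle of the merged peaks, plus strand of mm9. Capitals mark exact matches, on either strand, to an HNF4 core (CAAAGGCCA, CAAAGGTCA, CAAAGTCCA or CAAAGTTCA), to its first 8 letters (CAAAGGCC, CAAAGGTC, CAAAGTCC or CAAAGTTC), to an AP-1 core (TGACTCA, whose reverse complement is TGAGTCA) or to a CDX2 core (TTTATGGC or TTTATTGC), and the 8-letter words were added after the sequences were seen.
Fmo4 intron (of transcripts from the outer starts, outside the count table's locus), chr1:164743351-164743580, peak in 4 of 4 libraries: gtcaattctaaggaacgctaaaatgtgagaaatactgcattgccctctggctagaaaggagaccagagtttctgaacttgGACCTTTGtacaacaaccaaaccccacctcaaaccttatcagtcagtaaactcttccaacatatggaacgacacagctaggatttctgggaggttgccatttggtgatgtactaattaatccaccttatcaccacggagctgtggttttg
Fmo4 upstream, chr1:164745579-164745808, peak in 4 of 4 libraries: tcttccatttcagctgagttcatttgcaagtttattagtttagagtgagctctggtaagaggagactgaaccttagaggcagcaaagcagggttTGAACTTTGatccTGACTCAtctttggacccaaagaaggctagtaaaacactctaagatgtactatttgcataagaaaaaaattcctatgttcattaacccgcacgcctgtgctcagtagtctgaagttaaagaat
Fmo1 intron, chr1:164784340-164784569, peak in 3 of 4 libraries: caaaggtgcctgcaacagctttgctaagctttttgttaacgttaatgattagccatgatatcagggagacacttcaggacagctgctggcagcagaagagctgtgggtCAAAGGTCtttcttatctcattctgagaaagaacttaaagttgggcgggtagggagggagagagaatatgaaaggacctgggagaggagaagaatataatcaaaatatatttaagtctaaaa
Fmo2 intron, chr1:164816592-164816821, peak in 1 of 4 libraries: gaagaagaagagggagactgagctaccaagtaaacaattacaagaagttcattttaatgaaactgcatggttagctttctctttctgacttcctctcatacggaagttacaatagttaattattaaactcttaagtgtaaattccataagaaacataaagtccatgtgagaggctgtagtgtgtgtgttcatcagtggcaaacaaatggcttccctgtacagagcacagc
Fmo5 upstream, chr3:97424678-97424907, peak in 3 of 4 libraries: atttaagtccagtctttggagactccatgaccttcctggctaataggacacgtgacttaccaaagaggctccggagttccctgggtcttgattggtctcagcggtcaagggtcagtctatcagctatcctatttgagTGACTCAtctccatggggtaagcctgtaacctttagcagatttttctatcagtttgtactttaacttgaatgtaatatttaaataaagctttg

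The upstream Fmo4 site held a 9-letter HNF4 core on the minus strand (bases 95 to 103) and an AP-1 core 4 bases further on (bases 108 to 114). Of all 49524 HNF4α sites with a full window, 12.5% held a 9-letter core, 10.97% an AP-1 core and 4.76% a CDX2 core, and of the 8494 sites with a peak in all 4 libraries 26.5%, 14.1% and 6.0% did. The Fmo4 intron site and the Fmo1 intron site each held the 8-letter word CAAAGGTC, which stood on the minus strand at bases 81 to 88 in the first and on the plus strand at bases 109 to 116 in the second. One of the 4 such words was found in 19.2% of all sites and in 38.4% of those with a peak in all 4 libraries. The Fmo2 intron site held none of the words searched. The upstream Fmo5 site held an AP-1 core and no HNF4 word.

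Fmo5 and Fmo2 gave the most RNA of the family per length. Mean levels over the 12 RNA-seq libraries, in CPM per kb of annotated exon, were 23.4 for Fmo5, 16.4 for Fmo2, 4.63 for Fmo4 and 2.69 for Fmo1, which lay at the 82.3, 76.5, 50.5 and 40.5 percentiles of 14415 tested genes with a length. The order was not the same in every library. Per kb Fmo5 was above Fmo2 in 9 of 12 libraries, and their ranges were apart in 2 of 4 groups (HFDHFB and LFDHFB). Fmo2 was above Fmo4 in 11 of 12 libraries, and Fmo4 above Fmo1 in 9 of 12, with ranges apart in 3 and in 2 of 4 groups. Fmo9 had no read in any of the 12 libraries, where 3 reads would have been 0.0646 to 0.0728 CPM. It was the 1 of 5 members that did not pass the filter on low counts, and no level or fold can be given for it. Library totals ran from 39904191 to 48026846 counted reads, and this limit from 3 reads covers counting error only.

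Fmo2, the member with the widest range as a fold (12.1-fold between its lowest and highest library), was lowest in HFDHFB and highest in HFDLFB. It was read at 23.5, 37.0 and 40.6 CPM in the 3 HFDHFB libraries, at 284, 218 and 73.0 CPM in HFDLFB, at 77.6, 68.3 and 70.6 CPM in LFDHFB, and at 44.5, 43.5 and 113 CPM in LFDLFB. All HFDHFB libraries lay below all others of the 12. The high HFDLFB mean rested on replicates 1 and 2, since replicate 3 lay among the LFDHFB values. The fitted log2 fold change between HFDHFB and HFDLFB was −2.51 ± 0.49 (SE), or 5.68-fold lower in HFDHFB, and the groups did not overlap. Of all 15893 tested genes, 4.9% did not overlap in that direction.

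Fmo1, the taurine-forming member, had the same order of means at a lower level. Its values were 6.77, 12.5 and 5.73 CPM in HFDHFB, 21.9, 24.6 and 10.2 CPM in HFDLFB, 7.90, 11.2 and 10.1 CPM in LFDHFB, and 10.4, 8.94 and 8.90 CPM in LFDLFB. Again replicates 1 and 2 of HFDLFB were the highest of the 12 libraries, and HFDHFB and HFDLFB overlapped, since HFDHFB replicate 2 lay above HFDLFB replicate 3. The fitted log2 fold change between those groups was −1.18 ± 0.35 (SE).

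Fmo4 differed little between group means. Its values were 15.3, 12.4 and 12.7 CPM in HFDHFB, 9.91, 15.3 and 19.3 CPM in HFDLFB, 17.7, 20.6 and 2.85 CPM in LFDHFB, and 15.4, 9.90 and 14.7 CPM in LFDLFB. LFDHFB held both the highest and the lowest library of the 12. Between HFDHFB and HFDLFB the fitted log2 fold change was −0.14 ± 0.53 (SE), with overlap.

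Fmo5 was read at 76.7, 132 and 117 CPM in HFDHFB, at 196, 78.6 and 150 CPM in HFDLFB, at 95.9, 137 and 370 CPM in LFDHFB, and at 84.5, 76.7 and 78.6 CPM in LFDLFB. The LFDLFB values were the closest together, with an SD of 4.08 CPM, and LFDHFB replicate 3 was far above the rest. Between HFDHFB and HFDLFB the log2 fold change was −0.38 ± 0.45 (SE), and the groups overlapped.

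**Figure D1:**
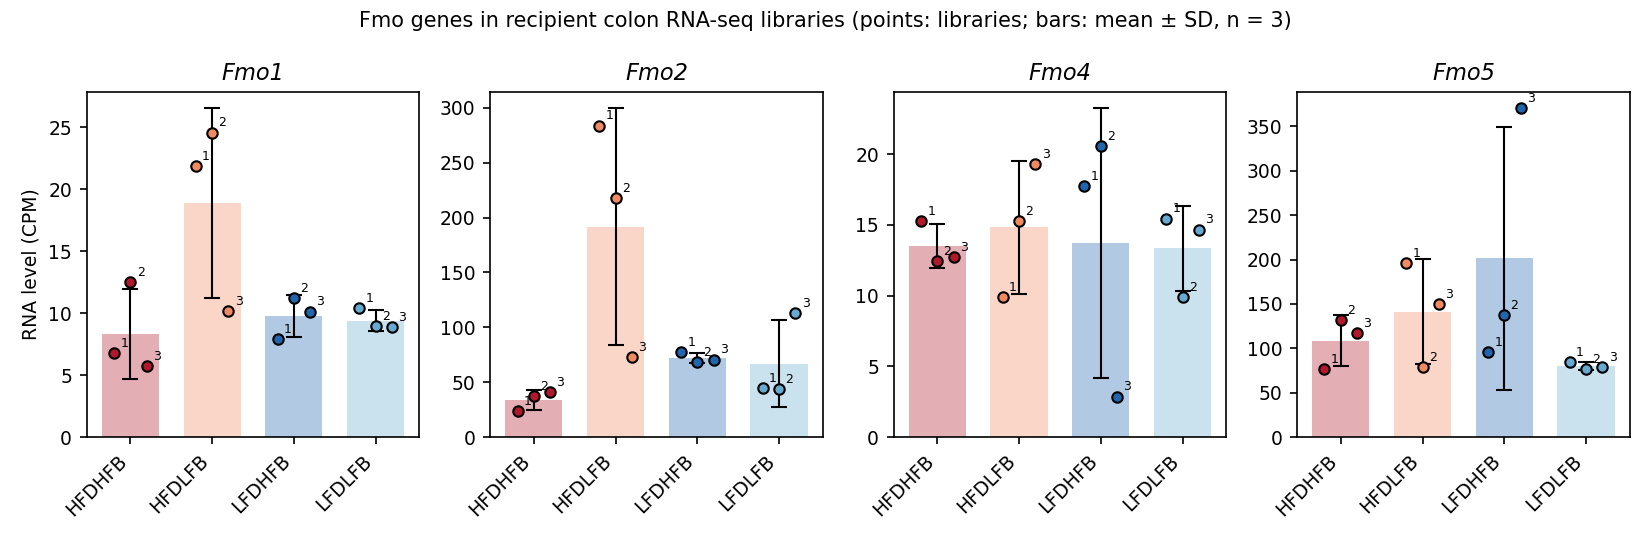
RNA level (y axis, CPM) of 4 Fmo genes in the 4 recipient groups (x axis). Points are libraries numbered by replicate, bars the mean and whiskers the SD (n = 3). Fmo2 in HFDHFB lies at 23.5 to 40.6 CPM, below every other library, and LFDHFB replicate 3 has the lowest Fmo4 value (2.85 CPM) and the highest Fmo5 value (370 CPM).

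LFDHFB replicate 3 stood apart from the other RNA-seq libraries: its median correlation with them was 0.941, against 0.963 to 0.977 for the other 11, as Pearson r of log2 CPM across genes, which are not independent replicates.

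Donor bacteria were compared on the LFD background (LFDHFB with LFDLFB), in libraries other than those whose Fmo1 and Fmo2 levels the family was chosen by. The members and tests were still chosen with earlier results of these data known. No gene passed an adjusted p of 0.05 by edgeR's quasi-likelihood test with Benjamini-Hochberg adjustment over 15893 genes, which is 0% of those tested. At an unadjusted p under 0.05 there were 592 genes (3.72%), and DESeq2 called 0. Fmo5 was 2.52-fold higher in LFDHFB, a log2 fold change of 1.33 ± 0.46 (SE) with a 95% interval, over the spread between libraries, of 0.32 to 2.34 (edgeR, adjusted p = 0.975). All 3 LFDHFB libraries lay above all 3 LFDLFB libraries, as they did for 5.25% of all tested genes. Without LFDHFB replicate 3 the log2 fold change was 0.55. For the other members the same comparison gave log2 fold changes of 0.05 ± 0.35 for Fmo1, 0.11 ± 0.47 for Fmo2 and 0.04 ± 0.53 for Fmo4 (SE), with edgeR adjusted p of 0.992, 0.989 and 0.998, and Fmo4 was at 0.52 without LFDHFB replicate 3. The 95% interval for Fmo2 was −0.92 to 1.13 on the log2 scale.

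The difference between the 2 bacteria effects, that on HFD minus that on LFD, was −2.61 ± 0.67 for Fmo2, −1.23 ± 0.49 for Fmo1, −1.71 ± 0.65 for Fmo5 and −0.18 ± 0.75 for Fmo4 on the log2 scale (SE), as a description. Without LFDHFB replicate 3 the Fmo5 value was −0.93 and the Fmo4 value −0.66. Over all genes edgeR called 0 for this difference at an adjusted p of 0.05 (0%), 1794 (11.3%) had an unadjusted p under 0.05, and DESeq2 called 73.

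The diet of the recipient was compared with the bacteria held constant, in fits that share the HFD libraries with the comparison that chose the family. The Fmo1 and Fmo2 values in those HFD libraries are the ones the family was chosen by, so for both genes the diet comparisons are a description. With LFB, the log2 fold change of HFD against LFD was 1.52 ± 0.48 (SE) for Fmo2 and 1.004 ± 0.347 for Fmo1, and in both the groups overlapped. Fmo5 and Fmo4 gave 0.82 ± 0.46 and 0.15 ± 0.53 (SE), with edgeR adjusted p of 0.881 and 0.977. With HFB it was −1.10 ± 0.47 (SE) for Fmo2, whose HFD libraries lay below its LFD libraries, where 3.55% of all tested genes did not overlap in that direction, and −0.23 ± 0.35 for Fmo1. Fmo4 gave −0.02 ± 0.53 and Fmo5 −0.89 ± 0.46 (SE), with edgeR adjusted p of 0.998 and 0.719, and without LFDHFB replicate 3 they were at −0.51 and −0.10. Over all genes edgeR called 0 in both diet comparisons (0%), with 847 (5.33%) and 1186 (7.46%) at an unadjusted p under 0.05, and DESeq2 called 9 and 126. For HFDHFB with HFDLFB the same counts were 0 (0%), 1441 (9.07%) and 80.

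**Figure D2:**
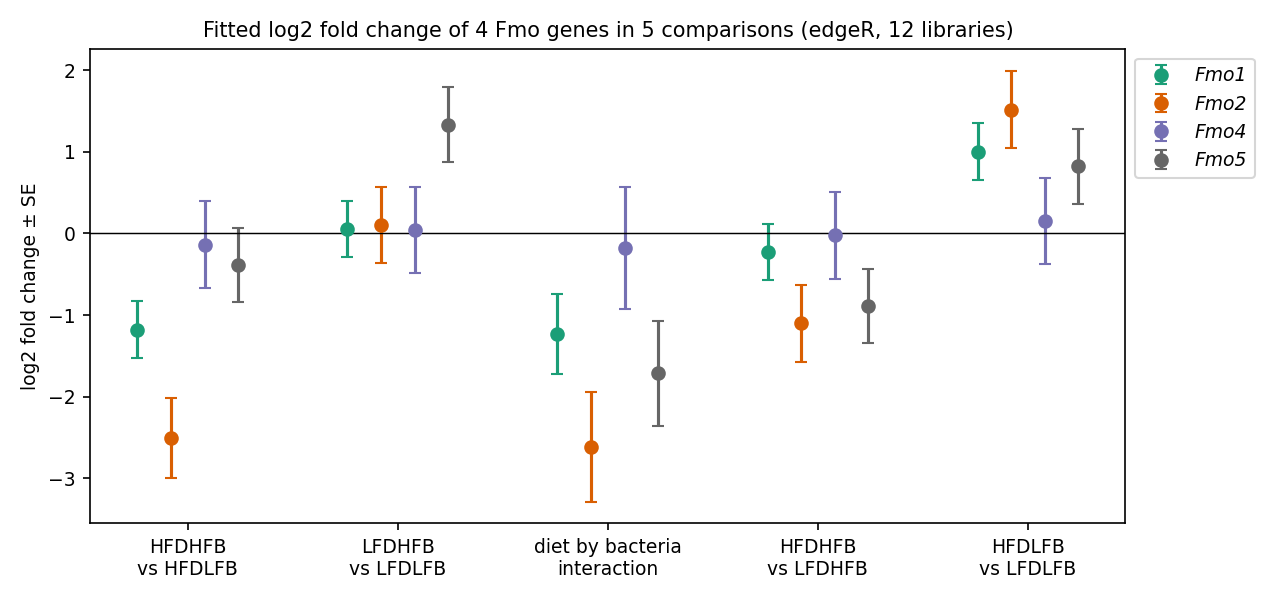
Fitted log2 fold change (y axis, whiskers ± SE) of Fmo1, Fmo2, Fmo4 and Fmo5 in the 5 comparisons (x axis), from 1 edgeR fit over 12 libraries. Fmo2 lies at −2.51 between HFDHFB and HFDLFB and at 0.11 between LFDHFB and LFDLFB, and the 5 Fmo4 values lie within their SE of 0.

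Markers of other layers of the colon wall moved beside Fmo2 and Fmo1. Of a mesothelium list of 8 genes, which mark the outer lining of the gut, 7 were in the table and tested, and all 7 were lower in HFDHFB than in HFDLFB, with a median log2 fold change of −2.37 against 0.00 over all genes. Their summed level was 49.7, 54.0 and 102 CPM in HFDHFB, 405, 505 and 97.5 CPM in HFDLFB, 131, 79.7 and 99.7 CPM in LFDHFB, and 57.1, 70.1 and 208 CPM in LFDLFB. Replicates 1 and 2 of HFDLFB were high and replicate 3 was not, and LFDLFB replicate 3 was the highest of its group, as for Fmo2. Over the 12 libraries the mean log2 CPM of the 7 genes followed that of Fmo2 with Pearson r = 0.95 and Spearman rho = 0.92, r was 0.87 without the 2 libraries farthest out and 0.94 after the group means were taken off each library, given as a description of libraries that share their depth and tissue mix. Between HFDHFB and HFDLFB the mean log2 CPM differed by −2.33 for Fmo2 and by −2.07 for the list, and by −0.26 for Fmo2 less the list. The part of this list in the Fmo2 result was not tested, and fewer cells of a type and less RNA per cell cannot be told apart in bulk RNA.

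Of 8 adipocyte genes all 8 were lower in HFDHFB than in HFDLFB, with a median log2 fold change of −3.08, and their sum ran from 37.4 to 406 CPM in HFDHFB, from 337 to 2898 CPM in HFDLFB, from 38.8 to 961 CPM in LFDHFB and from 98.3 to 224 CPM in LFDLFB. Fmo1 followed this list with r = 0.81 (rho = 0.87), r = 0.61 without the 2 libraries farthest out and r = 0.65 with group means removed. Its r with the mesothelium list was 0.70 (rho = 0.29), and −0.16 without those 2 libraries. Fmo5 followed 8 genes of absorptive colonocytes, the cells that take up water and salt at the colon surface, with r = 0.70 (rho = 0.76), and r = 0.85 without LFDHFB replicate 3. Fmo4 ran against the enteric neuron and glia list with r = −0.80 (rho = −0.83), and r = −0.85 without LFDHFB replicate 3, which had the lowest Fmo4 level. In the same comparison of HFDHFB with HFDLFB all 8 goblet and all 8 smooth muscle genes were higher in HFDHFB (median log2 fold change 0.53 and 0.77). All 8 endothelial and all 8 leukocyte genes were lower (−0.46 and −0.29). By edgeR 0 of these genes passed an adjusted p of 0.05 and 4, 0, 3 and 1 an unadjusted p of 0.05, beside 9.07% of all genes. Fmo2 and Fmo1 also followed the endothelial list (r = 0.71 each, and 0.36 and 0.40 without the 2 libraries farthest out). Both ran against the goblet list (r = −0.71 and −0.74, and −0.42 and −0.46 on the same terms). Fmo2 had r = 0.63 with the leukocyte list and 0.56 with the fibroblast list, and 0.39 and 0.10 on the same terms. With group means removed its r was 0.76 and 0.68, beside 0.62 for the endothelial list. The remaining lists did not move wholly 1 way between HFDHFB and HFDLFB. Lower in HFDHFB were 5 of 8 fibroblast, 7 of 8 absorptive colonocyte, 3 of 8 enteric neuron and glia and 1 of 8 epithelial genes. Fmo4 also ran against the smooth muscle list, with r = −0.65 (rho = −0.81). The part of these lists in the results was not tested.

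**Figure D3:**
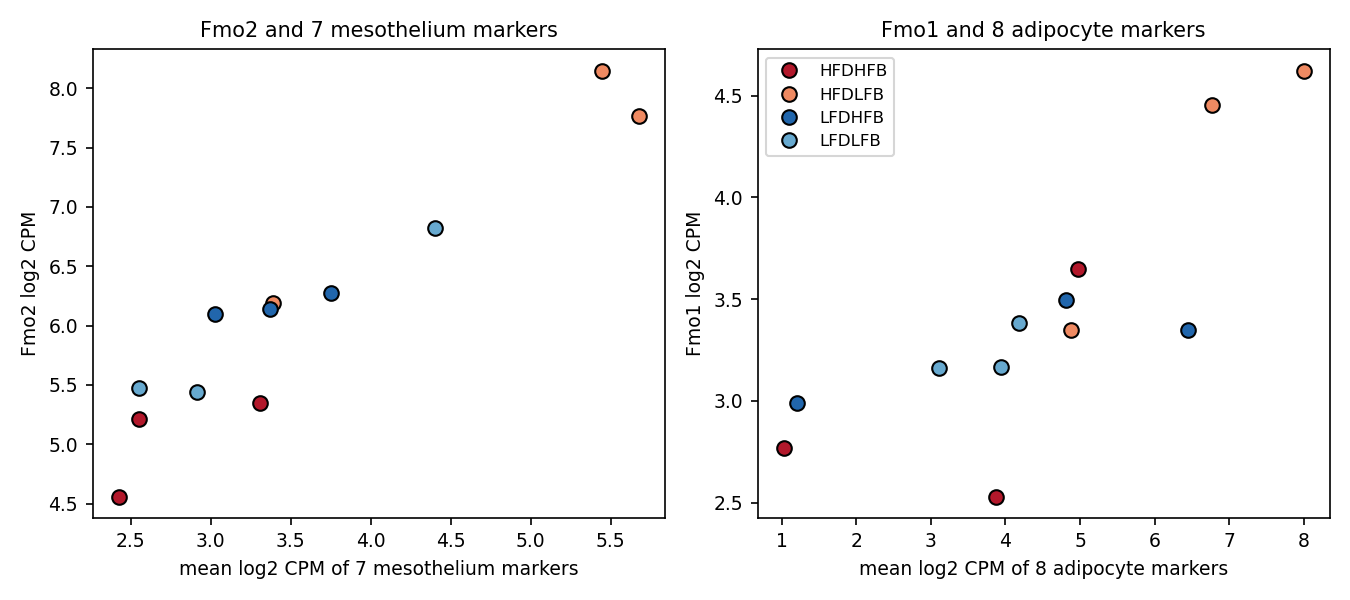
Left, Fmo2 (y axis, log2 CPM) against the mean of 7 mesothelium markers (x axis, log2 CPM). Right, Fmo1 against the mean of 8 adipocyte markers. Points are the 12 RNA-seq libraries, coloured by group. A pair of HFDLFB libraries lies at the upper right of each panel, and the third lies among the other groups.

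The genes most like each member over the 12 libraries, by Pearson r of log2 CPM, were Aebp1 (0.98), Amotl2 (0.98) and Lrrn4 (0.97) for Fmo2, of which Lrrn4 is on the mesothelium list, and r was 0.95, 0.95 and 0.92 without HFDLFB replicates 1 and 2. For Fmo1 they were Siglece (0.94), Cdsn (0.92) and L3hypdh (0.91), with r of 0.79, 0.82 and 0.76 without the 2 libraries farthest out, HFDLFB replicates 1 and 2. For Fmo5 they were Slc10a2, the bile acid transporter of the ileum (0.95), Slc2a9, a urate transporter (0.93), and Ppara, a nuclear receptor for fatty acids (0.93), and without the 2 libraries farthest out, of which LFDHFB replicate 3 was 1, their r was 0.80, 0.75 and 0.75. For Fmo4 they were Tnip3, Trpv3 and Il1rn (0.99, 0.98 and 0.98), with r of 0.90, 0.91 and 0.91 on the same terms. Within the family, r was 0.78 between Fmo1 and Fmo2 (rho = 0.43) and −0.69 between Fmo4 and Fmo5, which became −0.05 without LFDHFB replicate 3. The other 4 pairs of members lay between −0.05 and 0.21.

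The 26 pathway genes covered taurine synthesis and transport, riboflavin uptake and FAD synthesis, NADPH supply, electron transfer in the endoplasmic reticulum and candidate regulators. Whether those regulators act on the family was not tested. Of the 26, 25 were tested and none passed an adjusted p of 0.05 in any of the 5 comparisons by edgeR. Gadl1 was at 0 in every library. Between HFDHFB and HFDLFB 4 of 25 had an unadjusted p under 0.05, beside 9.07% of all genes, and all 4 were lower in HFDHFB. They were Cdo1, which forms the substrate for taurine synthesis, at a log2 fold change of −1.46 ± 0.55 (SE), H6pd, which makes NADPH inside the endoplasmic reticulum, at −0.69 ± 0.26, the electron carrier Cyb5a at −0.28 ± 0.11, and G6pdx, the first enzyme of the pentose phosphate pathway, at −0.22 ± 0.09. Between LFDHFB and LFDLFB 2 of 25 were past that p, beside 3.72% of all genes, and both were higher in LFDHFB, the nuclear receptor Ppara by 1.78 ± 0.61 (SE) and the xenobiotic sensor Ahr by 0.41 ± 0.15. For the difference between diets Cdo1, H6pd, Ppara and the bile acid receptor Nr1h4 were past it, beside 11.3% of all genes, all negative. Ahr was lower in HFDHFB than in LFDHFB (7.46% of all genes), and Cdo1 and Cyb5a were higher in HFDLFB than in LFDLFB (5.33%), at the same unadjusted p. Without LFDHFB replicate 3 none of the 25 was past it in the 3 of these comparisons that use that library, Ppara was at 0.45 ± 0.34 (SE) and Ahr at 0.30 ± 0.16 between LFDHFB and LFDLFB, and H6pd and Ppara joined Cdo1 and Cyb5a between HFDLFB and LFDLFB. These genes were named after their values were seen.

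Chromatin marks separated Fmo5 from the cluster in every long-term library. Over the 12 H3K27ac libraries the peaks covered 25.9% ± 3.51 (SD, n = 12) of the Fmo5 locus with its 10 kb on each side, and 8.84% ± 1.96 of the cluster. Fmo5 was higher in 12 of 12 libraries, by 17.0 ± 4.08 percentage points (SD; two-sided exact paired permutation test, p = 0.000488, the smallest it can give). H3K4me1 covered 28.3% ± 2.04 and 18.9% ± 1.67 (SD, n = 12), a difference of 9.38 ± 2.58 percentage points in 12 of 12 libraries (the same exact test, p = 0.000488). Both tests repeat the same 2 loci over libraries, so they do not set Fmo5 against other genes. Among gene windows with a peak, the Fmo5 window lay at the 80.0 percentile for H3K27ac and the 66.8 percentile for H3K4me1. The windows of Fmo1, Fmo2 and Fmo4 lay at 26.6, 43.7 and 53.6 for H3K27ac and at 48.6, 50.9 and 43.1 for H3K4me1. The Fmo5 window holds the start of Prkab2, and without the extension, which leaves that start out, the differences were 12.3 and 3.78 percentage points. Among the cluster's members H3K27ac covered 11.7% ± 0.84 of the Fmo4 window, 8.78% ± 3.34 of the Fmo2 window and 4.79% ± 2.23 of the Fmo1 window (SD, n = 12).

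The merged regions over the starts of the genes differed in how many libraries had an H3K27ac peak in them. A peak anywhere in a region counted, so the peak of a single library need not reach the start. The long-term regions were 5800 bp wide at Fmo4, 8400 bp at Fmo5, 2200 bp at Fmo2 and 3200 bp at Fmo1. A merged H3K27ac region spanned the annotated starts of Fmo4 and Fmo5 and had a peak in 12 of 12 long-term libraries at each. The region over the Fmo2 start had a peak in 10 of 12 and the region over the Fmo1 start in 6 of 12. At Fmo1 those were 2 of 3 HFD females, 1 of 3 HFD males, 0 of 3 LFD females and 3 of 3 LFD males. H3K4me1 regions over the same 4 starts had a peak in 12 of 12 libraries. An outer annotated start of Fmo1, at position 164796679, lay in no region of either mark. Distances into Fmo1 are from the nearest of its annotated starts, at position 164789845. Inside the genes, H3K27ac regions in 12 of 12 libraries lay in an intron of Fmo1, 6.0 kb from its start, and 11.8 kb into Fmo2, and the HNF4α intron sites of both genes fell in these. Fmo9 had no peak of either mark in any library, as did 30.6% of 24938 gene windows for H3K27ac and 19.9% for H3K4me1.

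In the recipients the regions over the Fmo4 and Fmo5 starts had H3K27ac in 11 of 11 libraries, and those over the Fmo2 and Fmo1 starts in 5 of 11 each. The Fmo2 start region had a peak in 3 of 3 HFDLFB, 1 of 2 HFDHFB, 1 of 3 LFDLFB and 0 of 3 LFDHFB libraries. The Fmo1 start region had 2 of 3, 1 of 2, 1 of 3 and 1 of 3 in the same order. For Fmo2, HFDLFB was the group with the highest RNA level and the 1 group with a peak in every library, and LFDHFB, with none, was not the group with the lowest RNA level. RNA came from scraped cells and H3K27ac from isolated epithelial cells, so levels and peaks may stem from different cell mixes. With 2 or 3 libraries a group these counts were not tested. Genome-wide, H3K27ac peaks per library numbered 46138 to 49147 in HFDLFB and 42486 and 51873 in HFDHFB. They numbered 39684 to 45797 in LFDLFB and 41769 to 43485 in LFDHFB. The part of these totals in the counts at the starts was not tested.

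**Figure D4:**
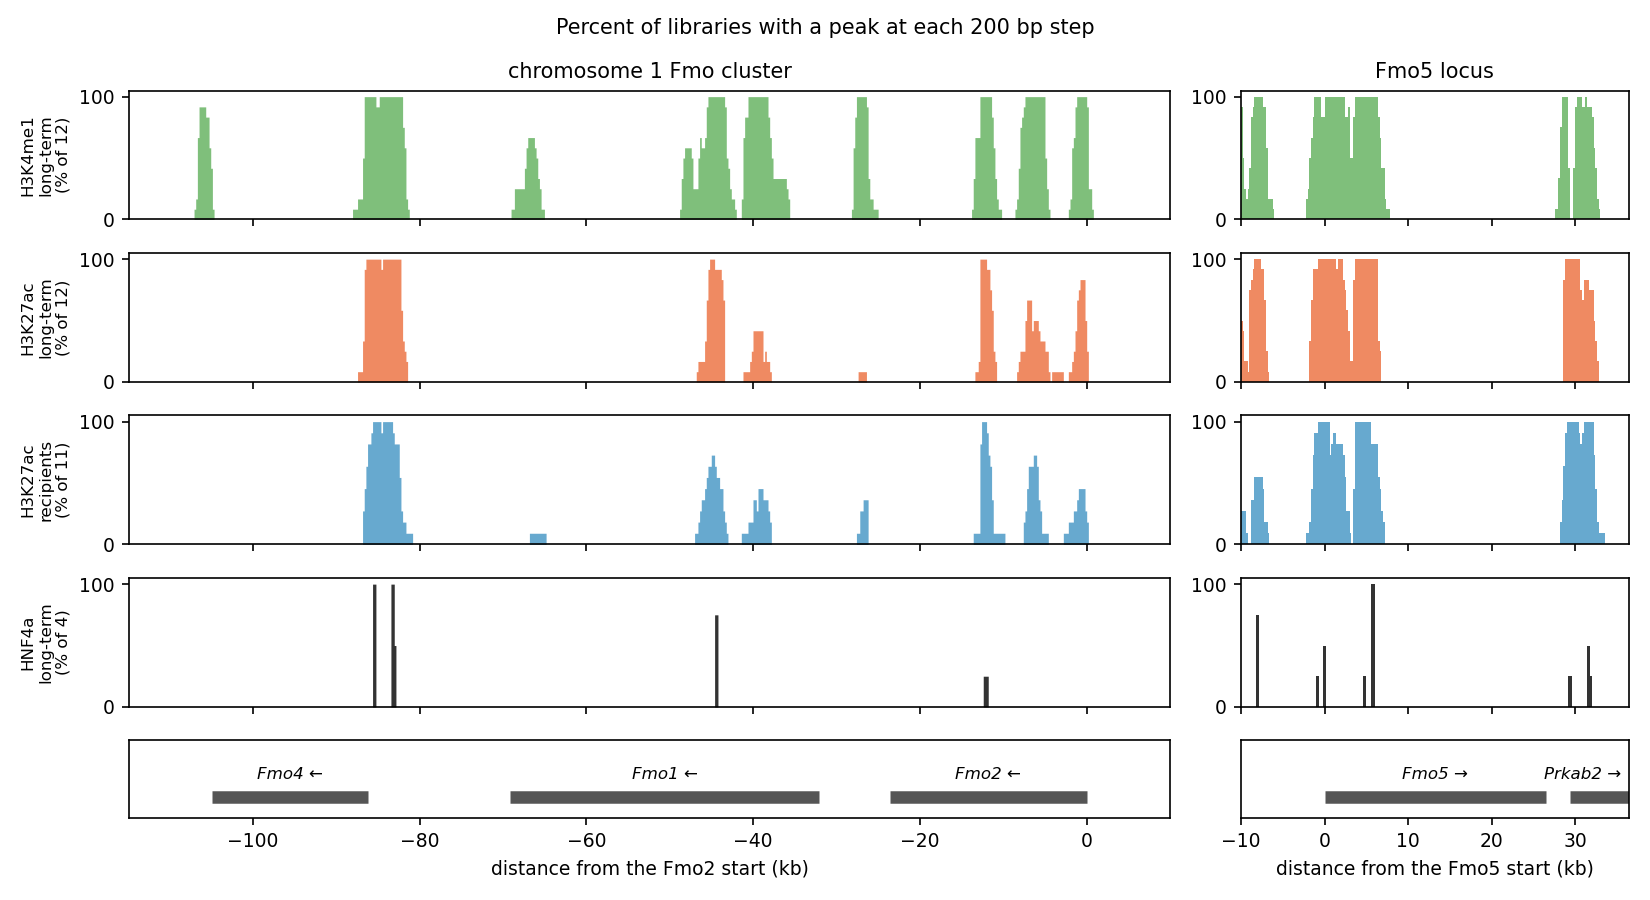
Percent of libraries with a peak (y axis) at each 200 bp step, by distance in kb from the annotated Fmo2 start (left, cluster) or the Fmo5 start (right), for H3K4me1 and H3K27ac in 12 long-term libraries, H3K27ac in 11 recipient libraries and HNF4α in 4. Bars at the foot are genes, with arrows for their direction. H3K27ac and HNF4α coincide upstream of Fmo4, in Fmo1 and in Fmo2, and around the Fmo5 start.

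No difference between the long-term diets in the covered share of either locus passed the exact test. At the cluster H3K27ac covered 9.24% ± 1.67 on HFD and 8.44% ± 2.31 on LFD (SD, n = 6; difference 0.80 percentage points, two-sided exact permutation of diets within sex, p = 0.43). At Fmo5 it covered 26.4% ± 4.48 and 25.3% ± 2.51 (n = 6; difference 1.13, same exact test, p = 0.655). Without each single library in turn these H3K27ac differences ran from 0.36 to 1.52 at the cluster and from 0.0998 to 2.68 at Fmo5. H3K4me1 covered 19.0% ± 1.99 and 18.9% ± 1.47 of the cluster (n = 6; difference 0.19, exact p = 0.9), and 29.3% ± 2.29 and 27.4% ± 1.32 of the Fmo5 locus (n = 6; difference 1.89, exact p = 0.07). Adjusted over these 4 tests the smallest p was 0.28, and the groups overlapped in each. The H3K4me1 difference at Fmo5 rested on the libraries taken: without HFD male replicate 3 it was 2.55 percentage points (exact permutation p = 0.02, unadjusted), and it was 0 when the 10 kb on each side were left out. None of the single members' windows was past an unadjusted exact p of 0.05 for either mark, beside 4.16% of gene windows for H3K27ac and 3.42% for H3K4me1.

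In recipients H3K27ac covered 8.33% and 12.02% of the cluster in the 2 HFDHFB libraries and 10.1%, 11.5% and 7.85% in HFDLFB, so the groups overlapped. The Fmo5 locus had 24.1% and 31.4% in HFDHFB and 25.5%, 26.0% and 23.7% in HFDLFB, with overlap too. In the Fmo2 window alone H3K27ac covered 5.04% and 10.99% in HFDHFB and 12.8%, 15.1% and 7.79% in HFDLFB, and in the Fmo1 window 4.21% and 11.6% against 7.36%, 7.71% and 4.21%. The groups overlapped in both windows, and no test was made between them. On LFD the cluster had 7.37%, 3.04% and 4.65% with HFB and 9.61%, 7.05% and 4.49% with LFB (difference −2.03 percentage points, two-sided exact permutation test, p = 0.5). The Fmo5 locus had 18.5%, 21.1% and 18.1% with HFB and 27.1%, 22.5% and 20.7% with LFB (difference −4.21, same exact test, p = 0.2). The smallest p that 3 against 3 libraries can give is 0.1. Fmo5 RNA was higher and its covered share lower in LFDHFB than in LFDLFB. These values are from separate libraries, of scraped cells for RNA and of isolated epithelial cells for H3K27ac. Among single members the Fmo4 window was the 1 without overlap, lower in LFDHFB (7.24% against 10.7%, exact permutation p = 0.1), beside 4.83% of gene windows in that direction.

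**Figure D5:**
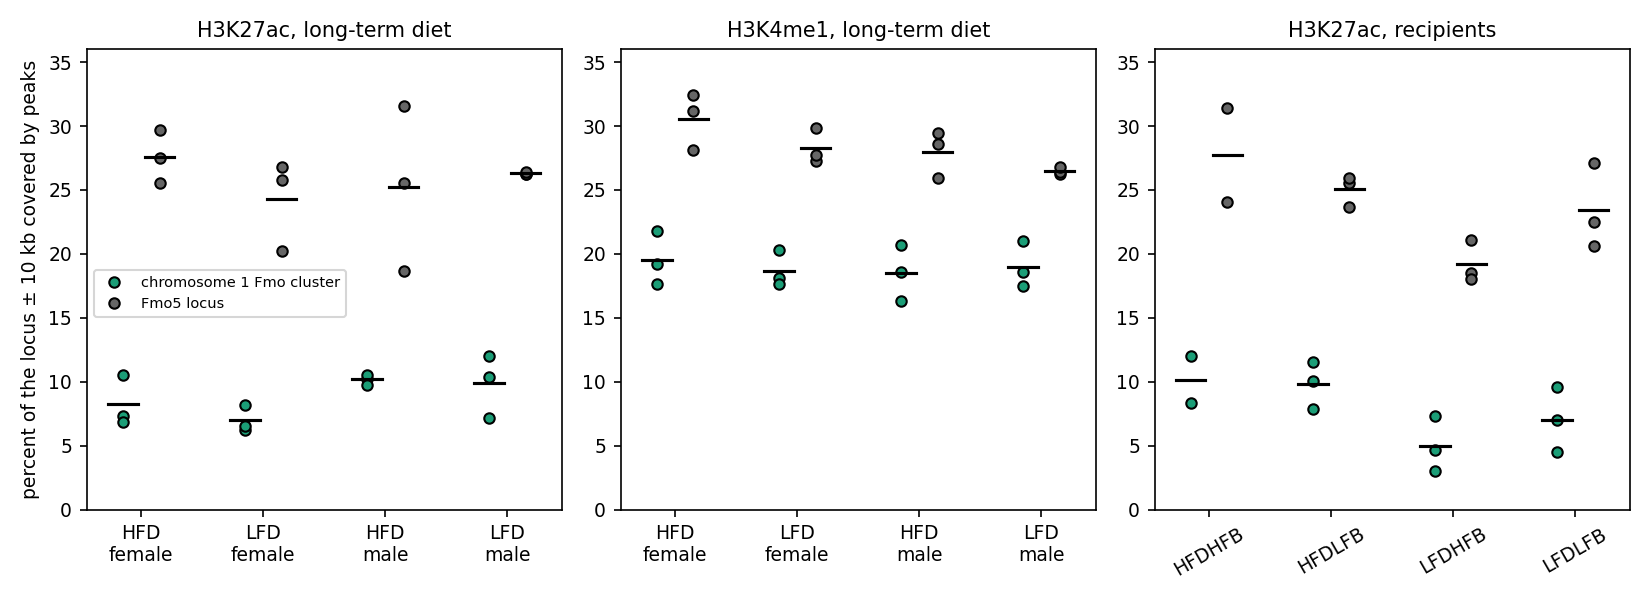
Percent of the locus with 10 kb on each side covered by peaks (y axis) in each library (points) with the group mean (lines), for the chromosome 1 cluster and the Fmo5 locus. Fmo5 lies above the cluster in all 12 long-term libraries of each mark, and the diets overlap.

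HNF4α was mapped in 2 HFD and 2 LFD long-term male libraries. The cluster window held 4 sites and the Fmo5 window 7, of which 2 and 1 had a peak in all 4 libraries, and Fmo9 had none. Both of the cluster's shared sites lay at Fmo4, 1.6 kb upstream of its outermost annotated start and between its annotated starts, 0.338 kb behind the nearest of them, and both lay outside the locus of the count table. The Fmo1 intron site, 5.4 kb into the gene, had a peak in both HFD libraries and in 1 of 2 LFD libraries. The Fmo2 intron site, 11.9 kb into the gene, had a peak in LFD replicate 1 alone. That library had the most HNF4α peaks genome-wide, 27766, beside 21308 in LFD replicate 2 and 22640 and 22506 in HFD replicates 1 and 2. At Fmo5 a site over the start had a peak in both LFD libraries and in neither HFD library (chr3:97432585-97432814, in the first exon and just before it), the upstream site 7.9 kb away in 3 of 4, and an intron site in 4 of 4. A site 0.7 kb before the start and another 4.8 kb into the gene had a peak in HFD replicate 2 alone, and the remaining 2 of the 7 sites lay in Prkab2, of which 1, with a peak in 2 of 4 libraries, held the 9-letter HNF4 core CAAAGGTCA. All 4 cluster sites overlapped H3K27ac and H3K4me1 peaks in 6 of 6 male libraries of each mark, as did the 5 sites at Fmo5 outside Prkab2. The peak lists give no heights, and with 2 libraries per diet no test was made.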

How the data were processed

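Per the labels and the study's methods, the authors aligned RNA-seq reads of the recipients to mm9 with STAR 2.5 and deposited raw read counts per gene from featureCounts 1.5.0-p1. The strand setting and annotation are not given in the sources used here, so reads of overlapping or near-identical genes could not be told apart. ChIP-seq reads were aligned with Bowtie 0.12.8 and de-duplicated with Picard 1.110, and peaks were called per library with SICER (window 200 bp, gap 200 bp for H3K27ac and 400 bp for H3K4me1, FDR 0.001) or, for HNF4α, HOMER. The peak lists hold positions with no height or read count, so their depth is unknown. Input libraries were not used here.

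Counts were fitted in edgeR 4.0.16 (R 4.3.3): filterByExpr, TMM, 4 groups in 1 quasi-likelihood fit over 12 libraries, 15893 of 25494 rows tested, Benjamini-Hochberg adjustment. Log2 CPM used a prior count of 2. On simulated counts the fit was tested before use. Alternatives were relative log expression (RLE) size factors, DESeq2 1.42.0, no filter, a block on the replicate number and the fit without each single library. Peaks were counted from 1 bp of overlap with each locus extended by 10 kb, and the percent of bases covered was compared by exact permutation. Annotation was GENCODE vM1, and sequences came from the mm9 genome. Python 3.11.15 was used. p-values measure the spread between libraries, which may be technical.

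The members, gene lists, motifs and tests were chosen with earlier results of these data known. Named genes were the members, the 3 genes most correlated with each, and pathway genes past an adjusted p of 0.05, of which there were none. Pathway genes at an unadjusted p fall outside this rule and were named after their values were seen. Sequences of 5 of the 11 HNF4α sites are printed, and those of the other 6, like other rows of the family in the table, are not reported here.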

Additional observations from a re-analysis of the deposited data

Results flagged for a closer look

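Of the 8 groups of 6 long-term libraries of a diet, mark and locus, 1 held a library far from the others. H3K27ac covered 20.2% of the Fmo5 locus in LFD female replicate 3, and its gap to the next library was 0.846 of the range of the 6. Each group held both sexes, and the other LFD libraries lay close together, from 25.8% to 26.8%. HFD male replicate 1 was lower still, at 18.7%, but was not flagged in the more spread HFD group, which reached 31.6%. Chance puts about 1 in 20 groups past the limit used. The cause was not tested.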

How the results depend on the processing

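The direction of Fmo2 and Fmo1 between HFDHFB and HFDLFB was the same under every alternative run: without each library in turn the log2 fold change ran from −2.89 to −2.11 for Fmo2 and from −1.59 to −0.93 for Fmo1. In that comparison Fmo4 ran from −0.36 to 0.11. Among the tested comparisons the small values turned. Between LFDHFB and LFDLFB, the values over the libraries left out ran from −0.034 to 0.18 for Fmo1, from −0.12 to 0.72 for Fmo2 and from −0.36 to 0.52 for Fmo4, which was at −0.042 with the replicate block. Between HFDHFB and LFDHFB, Fmo4 was at 0.044 with the replicate block and ran from −0.51 to 0.36 over the libraries left out. Between HFDLFB and LFDLFB it ran from −0.089 to 0.37. DESeq2 called 80 genes between HFDHFB and HFDLFB, 73 for the difference between diets, 126 between HFDHFB and LFDHFB and 9 between HFDLFB and LFDLFB where edgeR called 0, and RLE, no filter, the replicate block and each library left out gave 0 (from 0 to 0). The H3K4me1 difference between diets at the cluster was −0.13 percentage points with peaks under 1000 bp left out and ran from −0.36 to 0.73 over the libraries left out. At Fmo5 it ran from 1.26 to 2.55, with exact p = 0.02 at 2.55, without HFD male replicate 3, and was 0 without the extension. HNF4α sites numbered 2 at the cluster and 3 at Fmo5 without the extension, from 3 to 4 and from 5 to 7 without each library, a setting added after the peaks had been read. Replicate numbers did not pair the RNA-seq libraries: over 18 same-numbered pairs the correlation of deviations from group means ran from −0.59 to 0.45, 6 pairs were over 0.1, and 3 libraries correlated best with their own number. The replicate block moved no count of calls from 0, and for covered percent the exact p with the block was 0.438 and 0.938 at the cluster and 0.688 and 0.0938 at Fmo5 for H3K27ac and H3K4me1. The cause of these shifts was not tested. The peak lists hold no depth, and 3 libraries against 3 could not give an exact p below 0.1.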
